A study of Mus musculus with 4 samples.

Results

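Camta1, Anks1b and Atp2b2 are long genes known for their use in neurons, and each held 4 or more Eya1 peaks within its gene body in replicate 2 of an Eya1 chromatin immunoprecipitation and sequencing (ChIP-seq) experiment on mouse kidney. They were chosen by that count of replicate 2 peaks, and Camta1 also by 4 or more peaks in replicate 1. They were 3 of 21951 protein-coding genes in the GENCODE M21 annotation of mm10, of which 24 (0.109%) held 4 or more replicate 2 peaks and 5 (0.0228%) held 4 or more replicate 1 peaks. Their gene bodies held 19 of the 8452 peaks in both lists together, 14 from replicate 2 and 5 from replicate 1. The number of peaks per gene is what defined the genes, and it is described without a test.

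The tissue was kidney of E13.5 mouse embryos carrying an Eya1 HA-FLAG knockin allele, and the tagged Eya1 was recovered on anti-FLAG M2 beads. Kidneys were pooled, with 80 for each assay, and the labels name this allele for all samples. There were 4 samples, which were 2 Eya1 ChIP replicates, 1 input and 1 IgG, and the lists of the Eya1 replicates were analysed here. No untagged or mutant embryo is named among the samples, and whole kidneys contain several cell types. The lists give a chromosome, a start and an end for each peak, with no height, score or read count, so the depth behind a peak is unknown. The replicates differed in peak size, with a median width of 1069 bp in replicate 1 and 188 bp in replicate 2.

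Eya1 is a coactivator and phosphatase that has no DNA-binding domain of its own and reaches chromatin through partner proteins. Among the partners studied in kidney progenitors is REST, a zinc-finger repressor that keeps neuronal genes silent in cells that are not neurons. REST recognises RE1, an element of 17 bases in its core form, which is made of a left arm and a right arm and often lies far from a promoter. Camta1 encodes a calmodulin-binding transcription activator that is highly expressed in brain. Anks1b encodes a scaffold protein with ankyrin repeats found at synapses, and Atp2b2 encodes a plasma membrane pump that exports calcium from neurons and hair cells. A match to RE1 in a peak is a property of the sequence, and REST itself was not measured in these lists.

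The RE1 sequences under the peaks are shown first. A Camta1 peak about 257 kb into the gene, present in both lists, held a row of RE1 matches on the strand of the gene. RE1 was searched on both strands with at most 2 mismatches to the core consensus. In each line the capitals mark the 17 bases of the match, the lower-case letters are the neighbouring bases, and the strand is the one on which the element reads 5′ to 3′ in mm10. These 5 of the 10 matches in the replicate 2 peak are printed because they are the match with 0 mismatches and the 4 matches closest to it.
Camta1 chr4:151604683-151604712 (minus), 0 mismatches: tgaccgTTCAGAACCAGGGACAGcgcccag
Camta1 chr4:151604651-151604680 (minus), 1 mismatch: cgctatTTTAGGACCGGGGACAGaggttcc
Camta1 chr4:151604618-151604647 (minus), 2 mismatches: cgaacaTTTGGGACCGAGGACAGcggcccc
Camta1 chr4:151604584-151604613 (minus), 1 mismatch: cgctggTTCAGGACCGAGGACAGcacccct
Camta1 chr4:151604746-151604775 (minus), 1 mismatch: ttctgaTTCAGAACAGGGGACAGcggccac

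A further Camta1 peak of both lists, about 573 kb into the gene, held another row of matches. These ran on the strand opposite to the gene, and 4 of the 7 are printed to show how alike they were among themselves and how they differed from the first row.
Camta1 chr4:151289252-151289281 (plus), 1 mismatch: ttgttgTTTATAACCACGGACAGaggctgt
Camta1 chr4:151289342-151289371 (plus), 1 mismatch: aagctgTTCATAACCACAGACAGaggctgc
Camta1 chr4:151289369-151289398 (plus), 2 mismatches: tgcctgGCCAGCACCACGGACAGaggctgc
Camta1 chr4:151289159-151289188 (plus), 2 mismatches: tgcctgGCCAGAACCATGGACAGaggctgc

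The other 6 peaks with a match held 1 each in replicate 2, and these 6 elements are printed because they carry the RE1 content of the remaining loci.
Camta1 chr4:151186624-151186653 (plus), 1 mismatch: cttcttTTCAGCACTCTGGACAGagctccc
Camta1 chr4:151185931-151185960 (plus), 1 mismatch: tgcactTTCAGCACTCTGGACAGagcacag
Anks1b chr10:90881035-90881064 (plus), 1 mismatch: ctgaaaATCAGAACCTTGGACAGcaacacc
Anks1b chr10:90376805-90376834 (minus), 2 mismatches: atctaaATCAGGACCATGGACAGcttgacc
Atp2b2 chr6:113843383-113843412 (plus), 1 mismatch: ccatcgGTCAGCACCAAGGACAGcagacag
Atp2b2 chr6:113962981-113963010 (plus), 2 mismatches: gggttgGTCAGGACCCTGGAGAGctctagg

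The gene bodies differed in length and in how densely they were occupied. Camta1 (ENSMUSG00000014592.20) lies on the minus strand at chr4:150917322-151861876 and spans 945 kb. It held 6 replicate 2 peaks and 4 replicate 1 peaks. Anks1b (ENSMUSG00000058589.14) lies on the plus strand at chr10:89873509-90973300 and spans 1099.8 kb, with 4 replicate 2 peaks and 0 in replicate 1. Atp2b2 (ENSMUSG00000030302.16) lies on the minus strand at chr6:113743831-114042613 and spans 299 kb, with 4 replicate 2 peaks and 1 in replicate 1. Per 100 kb of gene body, the replicate 2 lists gave 0.635 peaks in Camta1, 0.364 in Anks1b and 1.34 in Atp2b2. In replicate 1 the densities were 0.423, 0 and 0.335. These rest on 4 Camta1 peaks and 1 Atp2b2 peak, and 1 of the 4 lay at the start of another gene, Vamp3. No order of Camta1 and Atp2b2 is therefore read from replicate 1.

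Most of these peaks lay deep in introns. A peak was called distal intronic when it overlapped no annotated exon and lay over 1 kb from every annotated transcription start site (TSS). In replicate 2 this held for 12 of 14 peaks, 4 in each gene, and in replicate 1 for 4 of 5. In other protein-coding genes it held for 256 replicate 2 peaks and 78 replicate 1 peaks, while both lists together held 8452 peaks. The 3 genes are long and were chosen by their peak counts, so their high share is a description. Among the 3 genes, the exceptions were all in Camta1. They were a peak beside the Camta1 start in replicate 2 and a peak in each list at the start of Vamp3, a gene for a vesicle fusion protein whose 5′ end lies inside the last intron of Camta1. In replicate 2, all peaks of Anks1b and Atp2b2 and 4 of 6 in Camta1 were thus distal intronic, while the peak beside the Camta1 start was intronic but not distal.

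**Figure D1:**
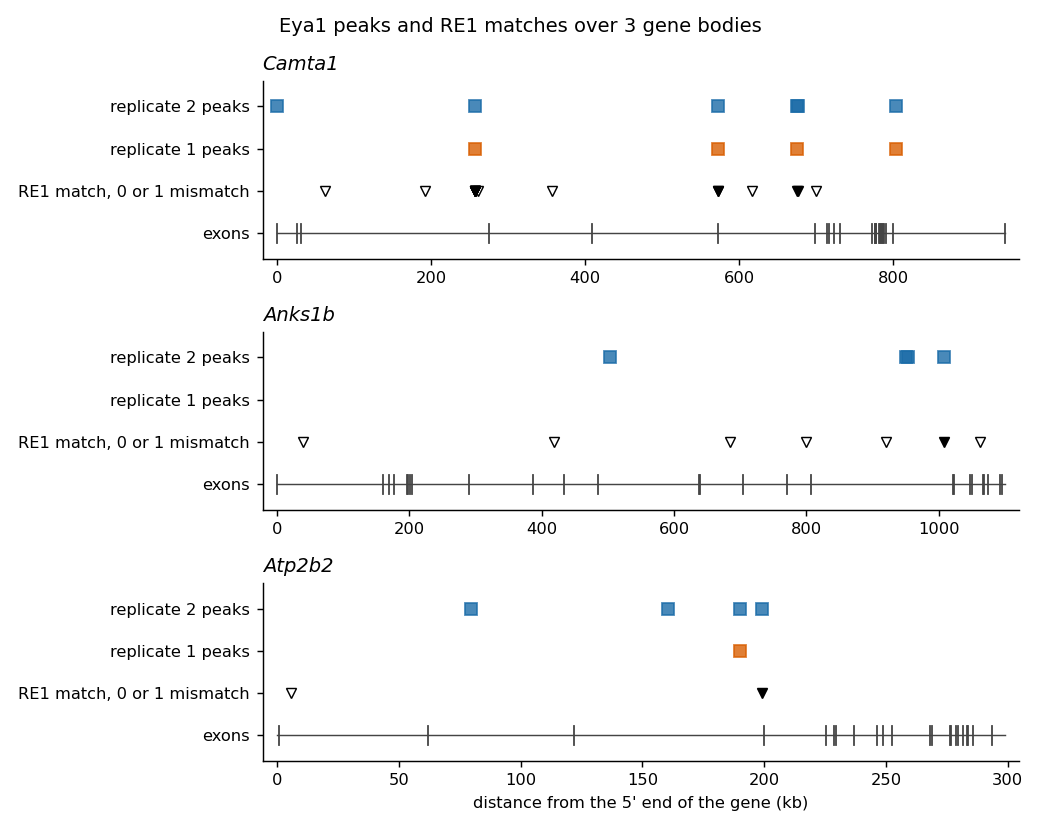
Each panel runs along a gene body, with the distance from the 5′ end of the gene in kb on the x axis and lanes for replicate 2 peaks, replicate 1 peaks, RE1 matches with at most 1 mismatch and the exons of a representative transcript. Filled triangles are matches under a peak and open triangles are matches under none. Camta1 holds 6 replicate 2 and 4 replicate 1 peaks, Anks1b 4 and 0, and Atp2b2 4 and 1.

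Camta1 carried its peaks at 6 loci, and introns are numbered here along Camta1-211, which has 24. The first, beside the start, was found in replicate 2 at chr4:151861496-151861612 and was 117 bp wide. It lay in intron 1, with its midpoint 0.322 kb from the 5′ end of the gene and its edge 0.038 kb from an annotated Camta1 TSS. Its GC content was 86.3% and it held 0 RE1 matches. Replicate 1 had no peak over it, but listed a peak of 431 bp outside the gene, at chr4:151862230-151862660. That peak lay 617 bp from the replicate 2 peak, on the other side of the Camta1 start.

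The widest pair of Camta1 peaks lay in intron 3, which is 244 kb long. Replicate 1 spanned chr4:151604200-151605707 (1508 bp) and replicate 2 spanned chr4:151604471-151605417 (947 bp), wholly inside it. The midpoints were 257 kb from the 5′ end of the gene. The replicate 1 peak held 11 RE1 matches and the replicate 2 peak 10, and the best had 0 mismatches in both. The additional match of replicate 1 had 2 mismatches and read on the opposite strand. The next pair lay 573 kb into the gene in intron 6, where replicate 1 spanned chr4:151288132-151289693 (1562 bp) and replicate 2 chr4:151288931-151289529 (599 bp). Both held the same 7 matches.

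A pair of narrower Camta1 loci followed in the same intron of 126 kb. At 675 kb, replicate 1 spanned chr4:151186476-151186771 (296 bp) and replicate 2 chr4:151186541-151186730 (190 bp), with 1 RE1 match in both. At 676 kb, replicate 2 alone had a peak at chr4:151185906-151186025 (120 bp), which was 0.45 kb from the replicate 1 peak of the neighbouring locus and also held 1 match. The 17 bases of these neighbouring matches were identical and their starts were 693 bp apart, while 22 of the 30 bases printed for them were identical. The last locus, in intron 24 at 804 kb, was the Vamp3 start. Replicate 1 spanned chr4:151057390-151058213 (824 bp) over a Vamp3 TSS and 90 bp of exon, and replicate 2 chr4:151057722-151057878 (157 bp) over 5 bp of exon. Neither held an RE1 match, and their GC contents were 72.1% and 70.7%.

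Within Camta1, the 4 distal intronic loci thus all held RE1 and the 2 loci beside a TSS held none. Of the 4 distal loci, 3 were in both lists.

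Anks1b had no replicate 1 peak, and the nearest replicate 1 peak was between 201 and 631 kb from each of its replicate 2 peaks. Introns of Anks1b are numbered along Anks1b-233, which has 25. The first replicate 2 peak, at chr10:90376746-90376862, lay in intron 12 at 503 kb, with 1 match of 2 mismatches. It was 117 bp wide, the smallest width among distal intronic replicate 2 peaks. The other 3 lay in intron 17, which is 214 kb long. The peak at chr10:90880979-90881139 (161 bp, 1008 kb) held 1 match of 1 mismatch. The peaks at chr10:90823546-90823718 (173 bp, 950.1 kb) and chr10:90827059-90827202 (144 bp, 954 kb) held none. Those without a match were close together and lay 5.39 and 1.91 kb from the TSS of a shorter Anks1b transcript, Anks1b-211, which starts inside the gene. The peaks with a match were 74.0 and 14.0 kb from the nearest TSS of any gene.

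Atp2b2 had its 4 replicate 2 peaks in introns 2 and 3 of Atp2b2-203, which has 21 introns. The peak in intron 2, at chr6:113962884-113963035 (152 bp, 79.7 kb from the 5′ end), held 1 match of 2 mismatches. In intron 3, which is 77.9 kb long, the peak at chr6:113881919-113882128 (210 bp, 161 kb) held none, and the peak at chr6:113843345-113843471 (127 bp, 199 kb) held 1 match of 1 mismatch. The remaining locus was the only Atp2b2 site found in both lists. Replicate 2 spanned chr6:113852425-113852699 (275 bp) and replicate 1 chr6:113852333-113852688 (356 bp), with 264 bp in common, at 190.1 kb.

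The shared Atp2b2 peak held no contiguous RE1 match, but both lists covered the same 2 places where the left and right arms stood on 1 strand with 10 bases between them. In the contiguous element the arms are 2 bases apart. The arms were searched as TTCAGCACC and GGACAGCGC on both strands, with at most 1 mismatch in each and 3 to 12 bases between. They are printed because they are the closest approach to RE1 in this peak, with the arms in capitals.
Atp2b2 chr6:113852465-113852492 (minus): TTCAGTACCaggaccatgtGGACAGCTC
Atp2b2 chr6:113852552-113852579 (minus): ATCAGCACCtggggcttgaGGACAGCTC
Such spaced arms were present in 8 of the 58 replicate 2 distal intronic peaks of other genes that held no contiguous match (13.8%), and in 0 of 116 windows of the same width placed 1 kb to either side of those 58 peaks. The other 3 replicate 2 distal intronic peaks without a match, in Anks1b and Atp2b2, held none.

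The Camta1 rows held more RE1 matches than any other peak of either list. In replicate 2, 726 of the 4164 peaks on chromosomes with sequence here held at least 1 match over the whole peak, 21 held 3 or more and 2 held 7 or more. Those 2 were the Camta1 peaks at 257 and 573 kb. In replicate 1, 747 peaks held a match (17.5%), 27 held 3 or more, and the same 2 loci were again the 2 with 7 or more. These peaks were also wide, and wider peaks have more room for matches. Per 100 bp, the row at 257 kb had 1.06 matches in replicate 2 and 0.729 in replicate 1, and the row at 573 kb had 1.17 and 0.448. By density other peaks were higher, among them a 446 bp replicate 1 peak at Smim17 with 5 matches (1.12 per 100 bp) and a 222 bp replicate 2 peak outside protein-coding genes with 3 (1.35 per 100 bp).

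**Figure D2:**
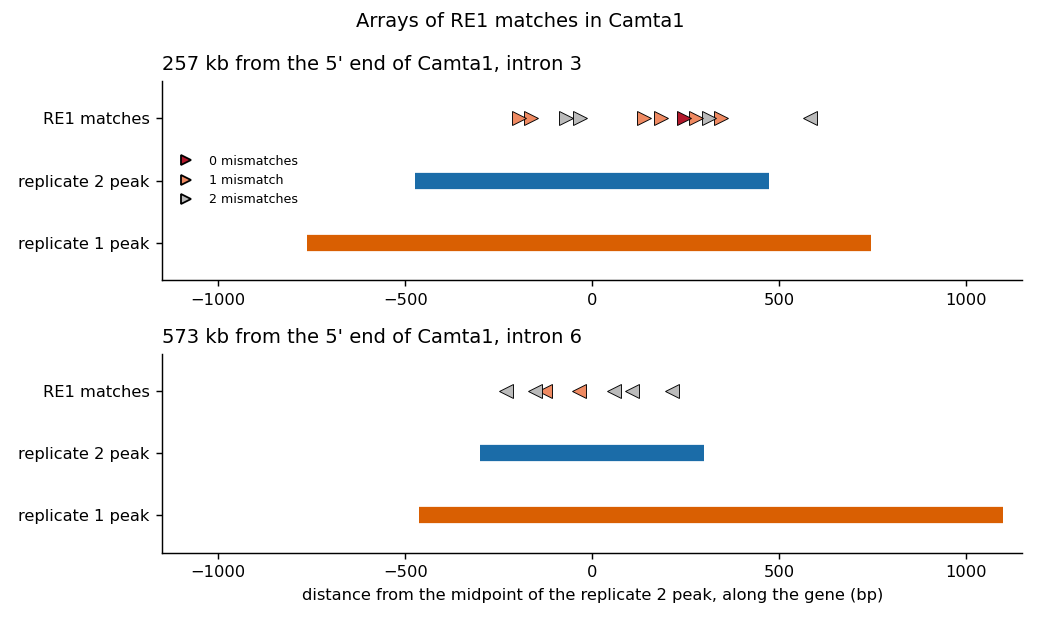
The x axis is the distance in bp from the midpoint of the replicate 2 peak, drawn along the strand of Camta1, for the loci 257 kb (top) and 573 kb (bottom) from the 5′ end. Bars are the peaks of the 2 lists and triangles are RE1 matches, pointing right where they read along the gene and coloured by mismatches. The upper replicate 2 peak holds 10 matches that all point along the gene, and the lower holds 7 that all point against it.

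The matches of each row in replicate 2 stood in the same orientation. At 257 kb, the 10 matches spanned 558 bp, and the distances between successive starts had a median of 37 bp and ranged from 32 to 171 bp. Of the 10, 1 had 0 mismatches, 6 had 1 and 3 had 2. When up to 4 mismatches were allowed, 15 elements were found with a median distance of 33.5 bp. At 573 kb, the 7 matches spanned 461 bp with a median distance of 84 bp, and none had 0 mismatches, 2 had 1 and 5 had 2. The 7 matches had no distance in common, and a repeated distance appeared with up to 4 mismatches, where there were 13 elements and the median distance was 27 bp. Laying each stretch over itself gave its highest identity at a shift of 33 bp for the first (36.1% of bases, against a median of 26.1% over the shifts tried) and of 27 bp for the second (46.5% against 24.1%). The values describe these stretches and carry no test.

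The rows also differed in the positions where they left the consensus, counted from 1 at the first capital letter. At 257 kb, position 6 was off in 7 of 10 elements. At 573 kb, position 2 was off in 5 of 7, and positions 1 and 5 in 3 each, while position 6 was off in none. Repeat-masked sequence, given in lower case in the reference, made up 13.3% of the first stretch and 13.0% of the second. Across the whole mm10 sequence, stretches with 5 or more matches whose starts were at most 200 bp apart numbered 87, of which 3 overlapped a peak. Only 7 of the 87 contained at least 2 matches with at most 1 mismatch, and 3 of these 7 overlapped a peak of both lists. They were the 2 Camta1 rows and a stretch at Smim17 on chromosome 7. The Smim17 stretch held 6 matches and ran past the edge of its peaks, which held 5 each. These grouping rules were set after the Camta1 rows had been seen.

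Many RE1 matches in the 3 genes lay under no peak. With at most 1 mismatch there were 26 matches in the 3 gene bodies, and 13 of them lay under a peak of either list. In the bodies of other protein-coding genes, 308 of 6277 such matches did (4.91%). The genes were chosen for having peaks, so this difference is a description. Camta1 gave 11 of its 17 matches, Anks1b 1 of 7 and Atp2b2 1 of 2. The Camta1 rows supplied 9 of the 13 covered matches, and outside them 4 of 17 were covered (23.5%).

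A match without mismatches was not always covered. Camta1 had 2 such matches, of which the one in the row at 257 kb was under peaks of both lists. The other lay 617 kb from the 5′ end and was 42.9 kb from the nearest replicate 1 peak and 43.7 kb from the nearest replicate 2 peak. It is printed for comparison with the covered match above, and the coordinates are those of the capitals.
Camta1 chr4:151245253-151245269 (plus), 0 mismatches, no peak: ggctccTTCAGCACCCTGGAGAGaggaatt
In other genes, 115 of 359 matches with 0 mismatches were under a peak (32.0%), 193 of 5918 with 1 mismatch (3.26%) and 554 of 77084 with 2 (0.719%).

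**Figure D3:**
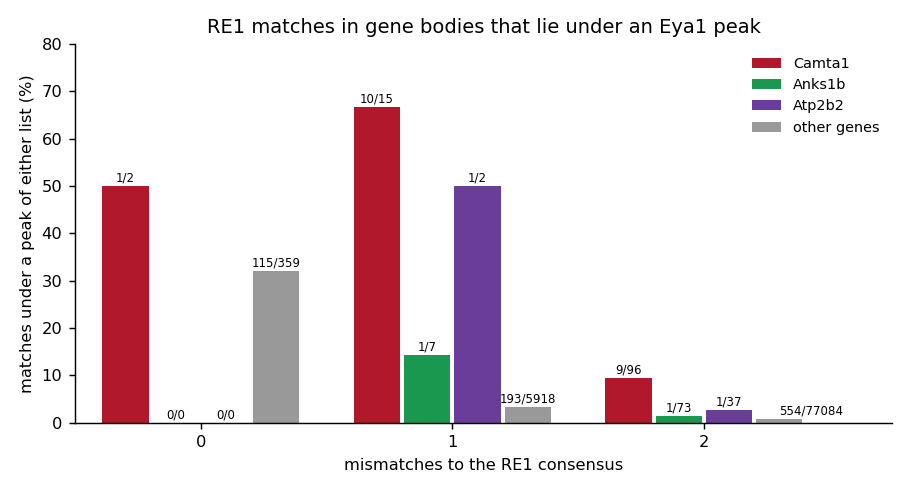
Bars give the percentage of RE1 matches in gene bodies that lie under a peak of either list, by number of mismatches on the x axis, for Camta1, Anks1b, Atp2b2 and all other protein-coding genes. The fraction over each bar is matches under a peak over all matches. At 1 mismatch, 10 of 15 Camta1 matches are covered against 193 of 5918 in other genes, and Anks1b and Atp2b2 have no match with 0 mismatches.

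The distal intronic peaks of the 3 genes were next compared with those of other genes in RE1 content and width, which the rule had not used, and no difference over the 3 genes passed the test. RE1 was present in 8 of 12 replicate 2 peaks (66.7%, exact Clopper-Pearson 95% CI 34.9 to 90.1%), compared with 198 of 256 in other genes (77.3%, 95% CI 71.7 to 82.3%). Fisher's exact test (two-sided) gave p = 0.481. By gene the counts were 4 of 4 in Camta1, 2 of 4 in Anks1b and 2 of 4 in Atp2b2. In replicate 1 they were 3 of 4 against 64 of 78 (82.1%; Fisher's exact test, two-sided, p = 0.562). Peaks of a list are not biological replicates, several lie in the same gene, and these intervals cover counting error over peaks alone.

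Recurrence in the other list is given without a test over the 3 genes, because Camta1 was also chosen by its replicate 1 peaks. In the 3 genes, 4 of the 12 distal intronic peaks of replicate 2 recurred in replicate 1 (33.3%, 95% CI 9.92 to 65.1%), and in other genes 94 of 256 did (36.7%, 95% CI 30.8 to 42.9%). By gene the counts were 3 of 4 in Camta1, 0 of 4 in Anks1b and 1 of 4 in Atp2b2. For Anks1b and Atp2b2 alone, the share minus that of other genes was -24.2 percentage points. Leaving Camta1 out follows its replicate 1 peaks, so that value is a description too. All 4 replicate 1 distal intronic peaks overlapped a replicate 2 peak, compared with 68 of 78 in other genes (87.2%).

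Peak width is the only size that the lists give. The 12 replicate 2 peaks had a median of 167 bp (range 117 to 947 bp), compared with 158 bp in 256 peaks of other genes (range 117 to 414 bp). A difference of 9 bp or more was common when peaks were shuffled between the groups (permutation test, two-sided, 100000 resamples, p = 0.50). The 947 and 599 bp Camta1 peaks were the only distal intronic peaks of replicate 2 wider than 414 bp. Without Anks1b the difference was 42 bp (permutation test, p = 0.028, not corrected for the other settings tried), and without Camta1 it was -1.5 bp. The 8 peaks left without Anks1b came from Camta1 and Atp2b2 and included those of 947 and 599 bp. Peaks of the same gene are not biological replicates. In replicate 1 the median was 932 bp in 4 peaks and 443 bp in 78 (permutation test, two-sided, p = 0.063).

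**Figure D4:**
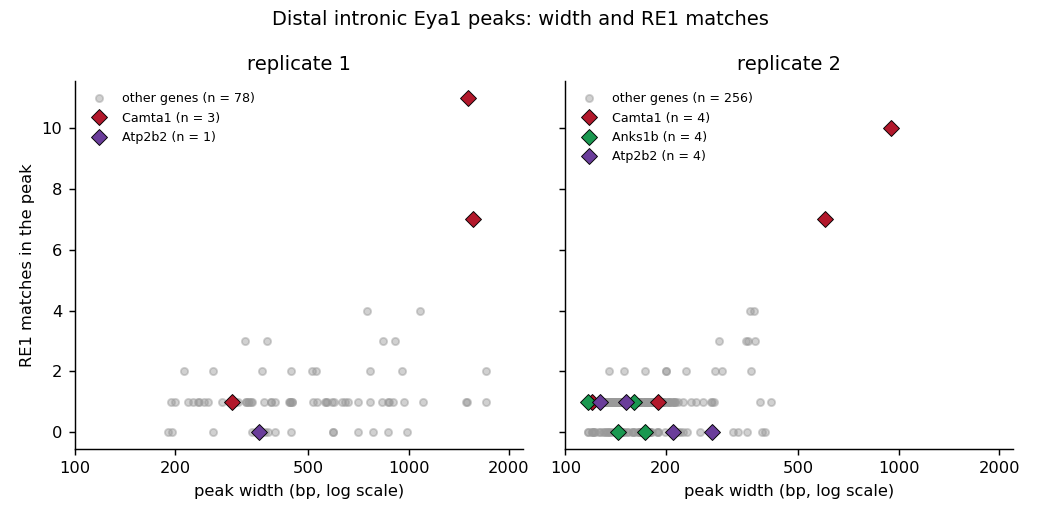
Each point is a distal intronic peak, with its width in bp on a log scale on the x axis and its number of RE1 matches on the y axis, for replicate 1 (left) and replicate 2 (right). Grey circles are other genes (78 and 256 peaks) and coloured diamonds are the 3 genes (4 and 12 peaks). The Camta1 peaks with 7 matches or more stand above all others in both panels, and the remaining peaks of the 3 genes lie among the grey points.

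The place of the match in the peak differed between the lists. In replicate 2, the best match of a peak was a median of 18 bp from the midpoint in the 3 genes (8 peaks, range 3 to 246 bp) and 10 bp in other genes (198 peaks). It was within 25 bp in 5 of 8 and in 168 of 198 (84.8%). In the wider replicate 1 peaks the median distance was 255 bp in the 3 genes (3 peaks, 1 within 25 bp) and 52 bp in other genes (64 peaks, 18 within 25 bp). The replicate 2 match 246 bp away was the 0-mismatch element of the row at 257 kb. It was taken as the best of 10 matches in its peak by its mismatches, not by its place. The best match read along the gene in 2 of the 8 peaks, the Camta1 row at 257 kb and the Anks1b peak at 1008 kb. GC content of the distal intronic peaks in replicate 2 had a median of 51.9% in the 3 genes and 53.8% in other genes. In replicate 1 the medians were 51.7% and 51.5%.

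The count of 4 or more replicate 2 peaks was also met by 21 other genes, many of them short. Among the 570 genes at least as long as Atp2b2, 448 had 0 replicate 2 peaks, 57 had a distal intronic peak and 6 had 4 or more peaks. These 6 were the 3 genes, Rbfox3 (4 peaks), Fgfr2 (12) and Gm20388 (19). Trio (295 kb) and Celf4 (277 kb), slightly shorter than Atp2b2, had 4 each, of which 0 and 1 were distal intronic. With distal intronic peaks alone, 5 genes held 4 in replicate 2. These were Camta1, Anks1b, Atp2b2, Rbfox3 and Gm20388. Rbfox3, a neuronal splicing factor gene of 422 kb, also had 2 replicate 1 peaks, and it met the rule without being a member. Gm20388 is a gene model of 4435 kb, and Fgfr2 has a model of 2961 kb. Both models overlap other protein-coding genes, which share some of their distal intronic peaks.

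**Figure D5:**
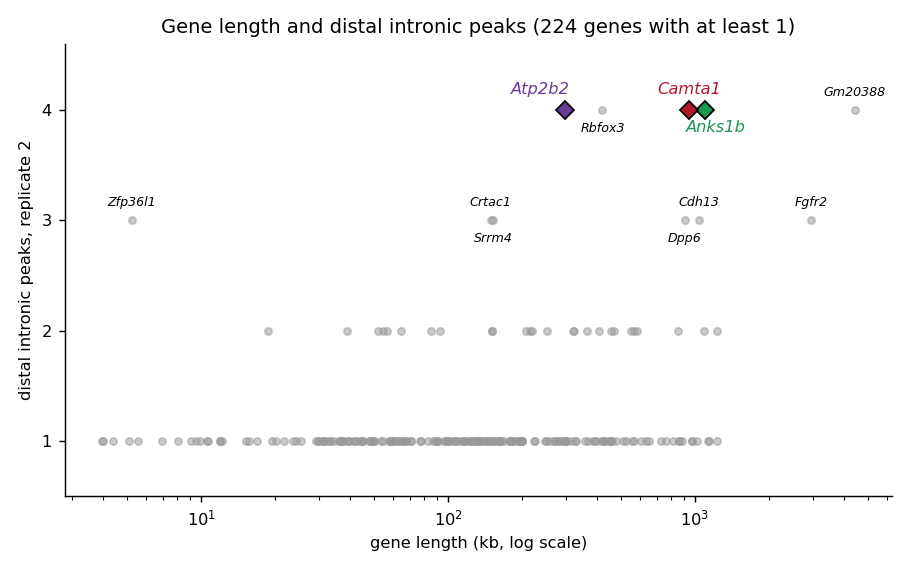
Each point is 1 of the 224 protein-coding genes with at least 1 distal intronic replicate 2 peak, with gene length in kb on a log scale on the x axis and the number of such peaks on the y axis. Camta1, Anks1b and Atp2b2 stand at 4 together with Rbfox3 and Gm20388, and 6 genes stand at 3.

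With 1 distal intronic peak fewer than the 3 genes, 6 genes had 3 such peaks in replicate 2. Cdh13 (1041 kb), an adhesion gene, Crtac1 (149 kb) and Srrm4 (153 kb), which encodes a neuronal splicing regulator, held RE1 in 3 of 3. Dpp6 (910.3 kb), which encodes a partner of potassium channels, held RE1 in 2 of 3, and Fgfr2, a growth factor receptor gene, in 2 of 3. Zfp36l1 is only 5.26 kb long and held RE1 in 0 of 3.

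Of 20 other long genes expressed in neurons, 5 had a replicate 2 peak (25%), beside 122 of all 570 long genes (21.4%). The list was chosen by hand and leaves out other long neuronal genes that have peaks, such as Rbfox3 and Dpp6. In it, 15 had 0 replicate 2 peaks, among them Rbfox1 (1526 kb), Csmd1 (1643 kb), Dlg2 (1973 kb) and Ptprd (2271 kb). Cntnap2 and Magi2 had 1 each, and neither was distal intronic. Kcnma1, a calcium-activated potassium channel gene, had 1 distal intronic peak with RE1. Cacna1a, which encodes a neuronal calcium channel subunit, had 2, both with RE1. At 252 kb, Cacna1a is shorter than Atp2b2, so it counts in the list of 20 but is not among the 570. The share with a distal intronic replicate 2 peak was 2 of 20 in that list (Kcnma1 and the shorter Cacna1a) and 57 of the 570 long genes (10.0%). The sets thus follow unlike length limits.

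The closest relatives of the 3 genes are shorter, at 18.6 to 153 kb, and had at most 1 peak in each list. Camta2 had 1 replicate 1 peak and 0 replicate 2 peaks, Anks1, the relative of Anks1b, had 1 in each list, and the calcium pump gene Atp2b1 had 1 and 0. Atp2b3 and Atp2b4 had 0 in both lists. Of all protein-coding genes, 20.4% had a replicate 1 peak and 14.5% a replicate 2 peak. None of the peaks of the relatives was distal intronic, and 1.02% of all protein-coding genes had such a peak in replicate 2.

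Promoter windows were examined last. RefSeq (GRCm38) windows of 250 bases before to 50 after a start numbered 9 for the 3 genes, and a peak of either list overlapped none of them, compared with 4318 of all 32851 windows (13.1%). RE1 occurred in 1 of the 9, at an internal Atp2b2 start 151 kb into the gene, and in 2.84% of all such windows. The replicate 2 peak beside the Camta1 start lay just downstream of the Camta1 window, and the replicate 1 peak of 431 bp lay just upstream of it. By the GENCODE annotation, that replicate 2 peak was 0.038 kb from a Camta1 TSS. The count of 0 in 9 thus holds for these RefSeq windows and does not show an unoccupied Camta1 promoter.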

How the data were processed

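Eya1 ChIP-seq was performed on E13.5 kidneys of Eya1 HA-FLAG knockin mice, and samples were grouped by their titles. The paper states that reads were mapped to mm10 with Bowtie, whereas the tool field of the labels names HISAT2. MACS was run by the authors at several P cutoffs with input or IgG as control, and they kept the peaks that both calls shared. Which cutoff and control made each list was not given in the sources used here. The deposited values are peak start and end positions in bp, 1 list per replicate, with no score, count or fold enrichment. Input and IgG were not analysed here.

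Positions are printed 1-based. Chromosome ends of GRCm38 held every peak, and 11 mitochondrial replicate 2 peaks were not searched for sequence. A peak belonged to a gene when it overlapped the GENCODE M21 gene span by at least 1 bp. RE1 was searched over whole peaks on both strands with at most 2 mismatches, and distal intronic peaks of other genes had their midpoint in a protein-coding gene. Fisher's exact test served for shares and a permutation test with 100000 resamples for median widths, both two-sided and over peaks. The 3 genes and the lists of relatives and long neuronal genes were chosen with earlier results of these data known. Genes named are the 3 members, those lists, genes with 3 or more distal intronic replicate 2 peaks, long genes with 4 or more replicate 2 peaks, Vamp3 and, chosen after its value was seen, Smim17. Some genes of the neuronal list are counted but not reported by name here. The search and tests were checked on simulated data. Python 3.11.15, numpy 2.4.6, scipy 1.17.1 and matplotlib 3.10.9 were used.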

Additional observations from a re-analysis of the deposited data

How the results depend on the processing

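Of 48 alternatives to 10 results, 35 left the direction and call as they were. With the narrower part of the replicate 2 list removed (below its median width), 5 of the 14 peaks were left, by construction. Overlap of 50% of both peaks left 3 shared peaks in each direction instead of 5. Without mismatches, 1 peak of each list held RE1 (8 and 3 before), and 1 of 2 matches was under a peak, while up to 2 mismatches gave 24 of 232. Matches under a peak numbered 10 to 13 when either replicate was left out. The width difference was 42 bp without Anks1b (permutation test over peaks, p = 0.028, not corrected for the settings tried), -1.5 bp without Camta1 and 489 bp in replicate 1. The difference in overlap with replicate 1, -3.39 percentage points, turned positive over 3 kb from a TSS (5.84), without Anks1b (13.3), without Atp2b2 (0.781) and for peaks within 500 bp (4.95). It carries no test, because Camta1 was chosen partly by its replicate 1 peaks. The causes were not tested. Leaving out gene models over 2 Mb, added after the data were seen, changed no call. No paired analysis was possible because only the Eya1 group has replicate lists. Unknown depth limits what absence from a list, such as Anks1b in replicate 1, can show.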
